A study of Mus musculus with 6 samples.

Results

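The 10 genes described here are the imprinted growth genes H19, Igf2, Cdkn1c, Dlk1, Meg3, Igf2r, Grb10, Plagl1, Peg3 and Mest, taken by symbol from the 53599 gene symbols of an RNA-seq count table of mouse hepatocytes. They were chosen by their Sox4 and EV levels in these same libraries, so their differences between groups are given as a description with no test, and members with few or no counts were kept. The study asked what a single transcription factor, Sox4, does to hepatocytes in the living liver, as a step of their reprogramming towards biliary cells. The Sox4 group received AAV8-TBG-HA-Sox4-P2A-Cre, an adeno-associated virus that encodes HA-tagged mouse Sox4 and Cre recombinase linked by a P2A peptide. The control group, called EV for empty vector, was given AAV8-TBG-Cre and therefore made Cre without Sox4. Transcription of both vectors was driven by TBG, a promoter active in hepatocytes. By the study's methods the animals were young male Rosa-LSL-Cas9-EGFP mice on a C57BL/6J background, a few weeks old at injection, in which Cre switches on Cas9 and EGFP, so both groups shared these. The genotype label was WT for EV and Sox4 for the Sox4 group. Cells were collected 4 days after injection by digesting the liver with liberase and enriching hepatocytes on Percoll, a density medium, with no sort. Each group had 3 libraries. The study's legends describe its RNA-seq replicates as animals, while the labels themselves do not tie each library to a mouse, so p-values measure the spread between these libraries.

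An imprinted gene is transcribed from the copy inherited from one parent and kept silent on the other, through DNA methylation set in the egg or sperm at a control region that serves a cluster of genes. Many imprinted genes regulate fetal growth: paternally expressed ones such as Igf2 tend to promote it, and maternally expressed ones such as H19, Cdkn1c and Igf2r tend to limit it. In mouse liver many of them are abundant before birth and are switched off in the weeks after it, a fall in which the repressor Zhx2 takes part for H19. No fetal or newborn library entered the comparison, so that fall is background and was not measured here.

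Total counts ranged from 15090629 to 16249382 in EV and from 16679195 to 16964860 in Sox4 libraries. Levels are CPM, that is counts scaled to a common library size, after trimmed-mean (TMM) scaling, a method that centres the bulk of genes. The floor was set at 3 counts, at most 0.231 CPM in each library. Floors and intervals of counts cover counting error only. For Sox4 itself the counts were 2, 0 and 3 in EV 1 to 3, against 21697, 15097 and 11816 in Sox4 1 to 3, as the labels have it, although counts per gene cannot separate the vector's transcript from the native one. Of 12691 genes tested, 55.1% passed an adjusted p of 0.05 (edgeR quasi-likelihood test, Benjamini-Hochberg), with 29.0% higher and 26.0% lower in Sox4. The direction of small changes depended on scaling. With library size alone the median log2 fold change of all genes was 0.51 against 0.0411 with TMM, and 79.9% against 52.7% of the genes called were higher. After TMM scaling the 8 hepatocyte markers summed to between 111000 and 134000 CPM in EV and between 79500 and 90800 CPM in Sox4 libraries. Of the 8, 6 were called lower. Hepatocyte transcripts were thus abundant in both groups. The lower Sox4 sums rest on the scaling, which set the Sox4 to EV ratio of mean library size at 1.485, against 1.072 for total counts.

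Sequences are shown for H19 and for the Dlk1 and Meg3 pair, the genes on which the differences below turn. H19 and Meg3 are long noncoding RNAs from which microRNAs can be cut. Those microRNAs are given from RefSeq (GRCm38.p6), 5′ to 3′, with the seed, bases 2 to 8 that pair with target mRNAs, in capitals:
miR-675-5p from H19, chr7:142577112-142577133, minus strand: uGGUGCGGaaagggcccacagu
miR-675-3p from H19, chr7:142577078-142577099, minus strand: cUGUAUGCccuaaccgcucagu
miR-770-5p from Meg3, chr12:109563710-109563731, plus strand: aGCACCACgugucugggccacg
miR-770-3p from Meg3, chr12:109563744-109563765, plus strand: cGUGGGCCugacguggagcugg

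None of these seeds is shared with another mature mouse microRNA of the table, so the set forms no seed family. Hairpins also lie inside Igf2 (miR-483) and Mest (miR-335). The rows of all 4 host genes' hairpins had 0 counts in the 6 libraries, H19's included, so the counts speak for the host RNAs and not for the microRNAs, which such libraries do not measure.

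Dlk1 and Meg3 lie in one imprinted domain of chromosome 12, are expressed from opposite parental copies and parted in 1 Sox4 library. The 250 bases before their annotated starts (RefSeq, GRCm38.p6) are given 5′ to 3′ in lower case. For Meg3 the window of the first of 2 listed starts is shown, with capitals marking a match to CAAAGNNCA, part of the element bound by the hepatocyte factor HNF4A:
Dlk1, chr12:109452573-109452822, plus strand: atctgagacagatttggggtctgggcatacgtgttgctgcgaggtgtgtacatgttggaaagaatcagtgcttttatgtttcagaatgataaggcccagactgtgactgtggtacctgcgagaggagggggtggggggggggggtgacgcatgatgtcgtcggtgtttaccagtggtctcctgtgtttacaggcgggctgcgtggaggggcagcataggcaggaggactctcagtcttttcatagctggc
Meg3, chr12:109540746-109540995, plus strand: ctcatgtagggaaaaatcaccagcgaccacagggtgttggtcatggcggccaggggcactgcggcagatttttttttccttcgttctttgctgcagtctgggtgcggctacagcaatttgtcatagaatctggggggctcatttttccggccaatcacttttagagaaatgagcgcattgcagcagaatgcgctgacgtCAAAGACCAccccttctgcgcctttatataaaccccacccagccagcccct

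RefSeq promoter entries were matched for 8 of the 10 genes, and not for H19 or Cdkn1c. They gave 15 windows of 250 bases, several of the same gene and some of Mest overlapping, so the windows are not separate promoters. In them 5 short motifs were searched on both strands. The SOX core ACAAAG was in 0 of the 15 windows and in 16.5% of all 32851 windows. The variant ACAATG was in 1 window, of Igf2, against 10.7% of all. CAAAGNNCA, which can overlap ACAAAG, was in 2, of Meg3 and Plagl1, against 5.49%. The TEAD core GGAATG was in 4, of Peg3 and of 3 Igf2 starts, against 12.6%, and the AP-1 element TGANTCA was in 0, against 6.75%. A match is a description of letters in a window, and the lack of one says nothing about binding.

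Of the 10 genes, 8 had enough counts to be tested, and Igf2 and Plagl1 did not. All 3 Sox4 libraries lay above all 3 EV libraries for H19, Cdkn1c, Dlk1 and Igf2r, that is 4 of 10 genes, against 33.1% of all tested genes, and 0 genes showed the opposite order, against 29.9%. The same 4 were called higher, against the 29.0% of all tested genes, and 0 were called lower, against 26.0%. These shares were fixed by the choice of genes and are printed as background alone. In the EV libraries H19, Igf2 and Dlk1 were at or under the floor throughout, whereas Igf2r stood between 71.2 and 81.9 CPM, so not every member was silent in adult hepatocytes.

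**Figure D1:**
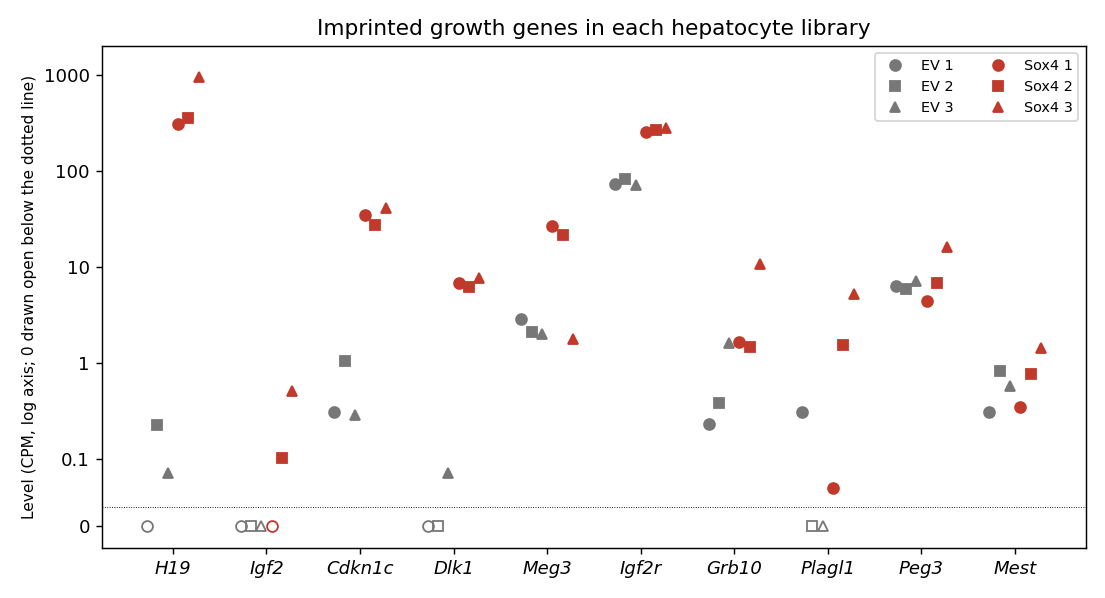
Level of each of the 10 genes in each library, in CPM on a log axis, with grey symbols for EV and red symbols for Sox4 libraries and the symbol shape giving the replicate number. Open symbols below the dotted line are libraries with 0 counts. H19, Cdkn1c, Dlk1 and Igf2r show no overlap between groups, and Sox4 3 (red triangle) is the highest Sox4 library for every gene but Meg3.

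H19 and Igf2 are neighbours on chromosome 7 and share enhancers and a control region bound by CTCF. H19 encodes a maternally expressed RNA that restrains growth, and Igf2 the fetal insulin-like growth factor. The counts of H19 were 0, 3 and 1 in EV 1 to 3, against 6125, 6918 and 18798 in Sox4 1 to 3. In CPM the Sox4 libraries stood at 307, 353 and 953, with Sox4 3 the highest. No EV library rose above the floor, and every Sox4 library lay far above it. The Sox4 mean of 538 ± 360 CPM (SD, n = 3) was at least 2380-fold higher than the EV floor, and at least 1470-fold without Sox4 3.

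Igf2 did not follow its neighbour. No EV library held a count, and Sox4 1 to 3 held 0, 2 and 10, the last of which was 0.507 CPM. Only Sox4 3 was above the floor, so no fold change was given. Per kilobase of exon, H19 averaged 219 CPM and Igf2 0.0355 CPM in the Sox4 libraries. In GENCODE M21 (GRCm38), an annotation of another build than that of the counts, 62.8% of the exonic bases of Igf2 are shared with the read-through gene Gm49394, which had 0 counts in all libraries. How reads in shared exons were assigned is not given in the sources used here, so Igf2 may be undercounted. The antisense Igf2os and the neighbour Ins2 had 1 count and 0 counts over the 6 libraries.

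Cdkn1c encodes p57, an inhibitor of cyclin-dependent kinases that slows the cell cycle, and sits in the next domain of chromosome 7, controlled by the noncoding RNA Kcnq1ot1. Its counts were 4, 14 and 4 in EV 1 to 3, against 686, 530 and 809 in Sox4 1 to 3. The levels were 0.308, 1.06 and 0.290 CPM in EV against 34.4, 27.1 and 41.0 CPM in Sox4, so the groups stood well apart and EV 2 was the highest EV library. The log2 fold change was 5.93 (SE 0.528), and 6.79 without EV 2. Of its exonic bases 30.7% overlap the antisense gene Gm44732, which had 0 counts.

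Other genes of that domain had smaller differences. Kcnq1ot1 stood at a log2 fold change of 0.48 (SE 0.289, with an adjusted p of 0.252), the transporter Slc22a18 0.25 (SE 0.200, adjusted p = 0.239) and the placental growth regulator Phlda2 0.70 (SE 0.488, adjusted p = 0.313), none of which passed the edgeR test. With library size alone Kcnq1ot1 (0.949, adjusted p = 0.0319) and Slc22a18 (0.714, adjusted p = 0.00451) passed. Nap1l4, a histone chaperone, was called higher at 0.62 (SE 0.0504, adjusted p = 5.93e-04), and so was Osbpl5, a lipid transfer protein. Osbpl5 counts rose from 0, 3 and 1 in EV to 54, 64 and 103 in the Sox4 libraries, and the Sox4 mean was at least 16.5-fold above the EV floor (adjusted p = 1.28e-04). Ascl2 and Kcnq1 had at most 8 and 7 counts in a library and were not tested.

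Dlk1 encodes a membrane protein related to Notch ligands that marks fetal hepatoblasts. Counts were 0, 0 and 1 in the EV libraries, against 135, 122 and 153 in Sox4 1 to 3, or 6.77, 6.23 and 7.75 CPM. The Sox4 libraries differed little from each other and all lay above every EV library. The mean of 6.92 ± 0.772 CPM (SD, n = 3) was at least 30.7-fold above the EV floor, and between 28.9-fold and 32.2-fold when each library was left out in turn.

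Meg3 and Rian, the noncoding RNAs made from the maternal copy of the Dlk1 domain, were split within the Sox4 group. Counts of Meg3 were 37, 28 and 28 in EV, against 530, 423 and 35 in Sox4 1 to 3. Its EV levels were 2.85, 2.13 and 2.03 CPM, and Sox4 1, Sox4 2 and Sox4 3 stood at 26.6, 21.6 and 1.77 CPM. After TMM scaling Sox4 3 thus lay below every EV library, but its counting interval, 1.24 to 2.47 CPM, took in EV 2 and EV 3. The log2 fold change of 2.83 (SE 1.23) became 3.37 without Sox4 3. Rian was split in the same way, at 2.31, 1.29 and 2.25 CPM in EV against 22.1, 25.9 and 2.43 CPM in Sox4 1 to 3. Its log2 fold change was 3.10 (SE 1.11, adjusted p = 0.0318). The call for Rian was lost when any one of EV 1, EV 2, EV 3, Sox4 1 or Sox4 2 was left out (adjusted p from 0.0572 to 0.125), with limma-voom (0.296) and with the replicate number as a block (0.136). Mirg, the third noncoding RNA of the row, had 1, 2 and 2 counts in EV and 14, 4 and 0 in Sox4, and Rtl1 and Dio3 had at most 1 count in a library.

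Within a library the ratio of 2 genes does not depend on depth. Rian per Meg3 was 0.83, 1.2 and 1.37 in Sox4 1 to 3, a narrow range. Meg3 per Dlk1 was 3.93, 3.47 and 0.229, so that the pair kept one ratio in Sox4 1 and Sox4 2 and another in Sox4 3. Cdkn1c per Dlk1, from different chromosomes, was 5.08, 4.34 and 5.29.

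**Figure D2:**
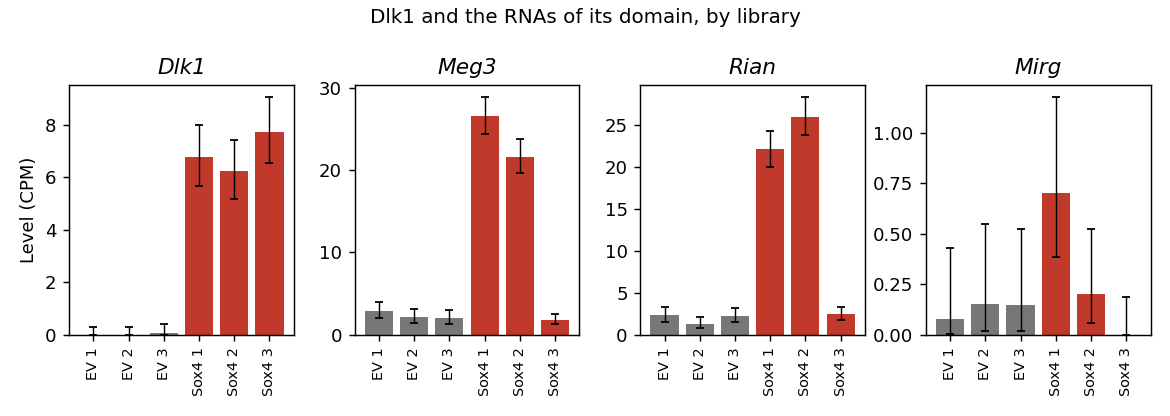
Level in CPM of Dlk1, Meg3, Rian and Mirg in each library, with EV in grey and Sox4 in red, each panel with its own axis from 0. Error bars are exact Poisson 95% intervals of the counts and cover counting error only. Dlk1 is present in all 3 Sox4 libraries, while Meg3 and Rian are high in Sox4 1 and Sox4 2 and close to the EV level in Sox4 3.

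Igf2r, on chromosome 17, encodes the receptor that takes up IGF2 for breakdown in lysosomes and carries mannose-6-phosphate-tagged enzymes to lysosomes. It was the one member with a substantial level in both groups, at 72.6, 81.9 and 71.2 CPM in EV and 253, 265 and 280 CPM in Sox4 1 to 3. The groups did not overlap and the libraries within each were close. The log2 fold change was 1.82 (SE 0.0763), and 2.29 with library size alone. Airn, the noncoding RNA that silences the paternal Igf2r copy in cis, is transcribed across it from the other strand. Airn had 5, 7 and 8 counts in EV and 24, 30 and 60 in Sox4 libraries. It was called higher, with an edgeR log2 fold change of 1.93 (SE 0.403, adjusted p = 0.00778). Exons of the pair do not overlap in GENCODE M21, but the strand setting of the counting is not given in the sources used here, so unspliced Igf2r reads may be counted for Airn. Slc22a3, also under Airn's control in placenta, did not pass the test at -0.28 (SE 0.254, adjusted p = 0.44), and its sign turned with library size alone (0.188).

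Grb10 and Plagl1 were raised above the EV range chiefly in Sox4 3. Grb10 encodes an adaptor that dampens insulin and IGF1 receptor signalling. It stood at 0.231, 0.380 and 1.60 CPM in EV and at 1.65, 1.48 and 10.7 CPM in Sox4 1 to 3, so Sox4 2 lay under EV 3 and the groups overlapped. The log2 fold change of 2.62 (SE 1.13) dropped to 1.07 without Sox4 3 and went up to 3.87 without EV 3. Plagl1, also called Zac1, is a zinc finger factor that acts on other imprinted genes. Its counts were 4, 0 and 0 in EV, against 1, 30 and 103 in Sox4 1 to 3, which made 0.0501, 1.53 and 5.22 CPM in the latter. Sox4 1 lay below EV 1, at 0.308 CPM, and the gene was not tested. Of Grb10's neighbours, Cobl was lower at a log2 fold change of -1.03 (SE 0.111, edgeR adjusted p = 1.51e-04), and Ddc, the dopa decarboxylase, was at 0.29 (SE 0.240, adjusted p = 0.222), a value that passed with library size alone (0.755, adjusted p = 0.00715).

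Peg3 and Mest, paternally expressed genes for a zinc finger protein and an enzyme of the hydrolase fold, overlapped between groups. Peg3 was at 6.4, 5.85 and 7.12 CPM in EV and at 4.46, 6.90 and 16.0 CPM in Sox4 1 to 3. Sox4 1 was the lowest of the 6 libraries and Sox4 3 the highest. The log2 fold change was 0.50 (SE 0.538), and -0.18 without Sox4 3. Mest was at 0.308, 0.835 and 0.581 CPM in EV and at 0.351, 0.766 and 1.42 CPM in Sox4. Its log2 fold change of 0.55 (SE 0.597) became -0.041 without Sox4 3. Of its exonic bases 23.1% overlap the antisense gene Copg2, which had 5000 counts over the 6 libraries, so part of the low Mest signal cannot be assigned. Copg2 itself did not pass the test at 0.19 (SE 0.0935, adjusted p = 0.191), and did with library size alone (0.654, adjusted p = 7.59e-04). Usp29 and Zim1, neighbours of Peg3, had 1 count and 0 counts in all.

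Set side by side per kilobase of exon, the order of the 10 genes differed between groups. In EV, Igf2r led at 8.08 ± 0.628 CPM per kb (SD, n = 3), well clear of Peg3 at 0.484 ± 0.0478, and from Peg3 down each gene overlapped the next. In Sox4, H19 led at 219 ± 146 CPM per kb, followed by Igf2r at 28.6 ± 1.46 and Cdkn1c at 16.7 ± 3.42, with no overlap between these neighbours. Dlk1 came next at 1.22 ± 0.136, and from there to Mest at 0.214 ± 0.136 each gene overlapped the next one in the order. Lengths came from GENCODE M21.

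Sox4 3 was the highest Sox4 library for 9 of the 10 genes, against 33.2% of all tested genes, and the lowest for Meg3. The genes were chosen with these levels known, and the 9 include Igf2 and Plagl1, which were not tested. That share is therefore printed as a description alone. Among the 35 other imprinted genes tested it was the highest for 17. Its log2 level minus the mean of Sox4 1 and Sox4 2 lay between -0.65 and 0.72 for the middle 90% of all genes. Dlk1 (0.25), Cdkn1c (0.42) and Igf2r (0.11) were inside that range, as was the Sox4 gene (-0.61), whose count there, 599 CPM, was the lowest of the 3. Grb10 (2.68), H19 (1.53), Peg3 (1.5) and Mest (1.25) were above it, with 12, 81, 88 and 166 of the 12691 genes at or above them. Meg3 (-3.67) and Rian (-3.24) were below it, with 7 and 9 genes at or below them. Of the other imprinted genes tested, Sgce (1.43), Peg10 (1.18), Airn (1.1) and Osbpl5 (0.787) were above that range and Tssc4 (-0.751) below it. The rest, apart from Rian, were inside it.

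**Figure D3:**
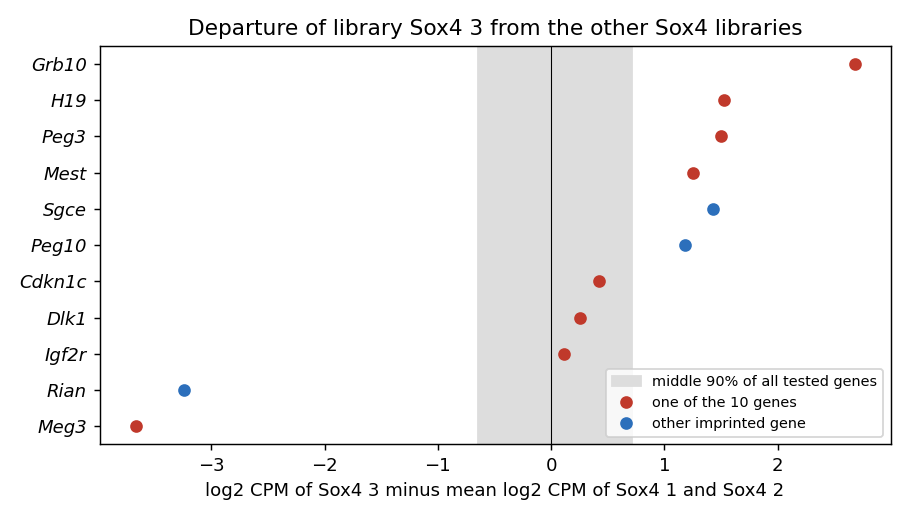
Departure of Sox4 3 from the other Sox4 libraries, as log2 CPM of Sox4 3 minus the mean log2 CPM of Sox4 1 and Sox4 2. Tested members are red, and 3 other imprinted genes, all outside the grey band, are blue. Airn, Osbpl5 and Tssc4 were also outside it and are not drawn, and the remaining imprinted genes tested were inside it. The grey band is the range of the middle 90% of all tested genes. Dlk1, Cdkn1c and Igf2r fall inside the band, Grb10, H19, Peg3, Mest, Sgce and Peg10 above it, and Meg3 and Rian below it.

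Some summed markers of other liver cells had the library order of some of these genes. The 8 Kupffer cell markers summed to 9.55, 17.5 and 19 CPM in EV 1 to 3 and to 16.5, 35.3 and 44.0 CPM in Sox4 1 to 3. Of 7 tested, 2 were called higher and 0 lower, where 29.0% and 26.0% of all tested genes were. The 8 endothelial markers summed to 20.3, 27.5 and 27.5 CPM in EV 1 to 3 and to 21.0, 36.8 and 42.5 CPM in Sox4 1 to 3. Of these, 3 of 8 were called higher and 1 lower, beside the same shares of all tested genes. The 11 stellate cell and fibroblast markers summed to 8.55, 27.3 and 46.3 CPM in EV 1 to 3 and to 135, 142 and 81.8 CPM in Sox4 1 to 3. The Sox4 sums were above EV in each library and lowest in Sox4 3, and 3 of 4 tested markers were called higher. Reln dominated that sum. The other 10 markers, a list made after seeing the data, came to 1.46, 4.63 and 8.79 CPM in EV 1 to 3. In Sox4 1 to 3 they came to 8.12, 25.4 and 31.0 CPM. The order of the Kupffer and endothelial sums, lowest in Sox4 1 and highest in Sox4 3, was also that of H19, Igf2, Igf2r, Plagl1, Peg3 and Mest. Dlk1, Cdkn1c, Grb10 and Meg3 had other orders. The 10 stellate markers without Reln had that order too, but the full list of 11 did not. In EV the Kupffer sums and both stellate sums also rose from EV 1 to EV 3, and the endothelial sum was lowest in EV 1. The 8 cholangiocyte markers summed to between 27.7 and 43.8 CPM in EV and to 85.0, 81.0 and 72.0 CPM in Sox4, the reverse order, and 2 of 4 tested were called higher. No marker of these 4 lists was at 0 in all 6 libraries. The summed erythroid markers were lower in Sox4, from 93.0 to 126 CPM in EV against 4.97 to 15.5 CPM. The lymphoid and neutrophil markers stayed between 0.771 and 4.29 CPM in every library, with Ms4a1 at 0 throughout. In bulk RNA, fewer cells of a type and less RNA per cell cannot be told apart, and the part of these cells in the members' levels was not tested.

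**Figure D4:**
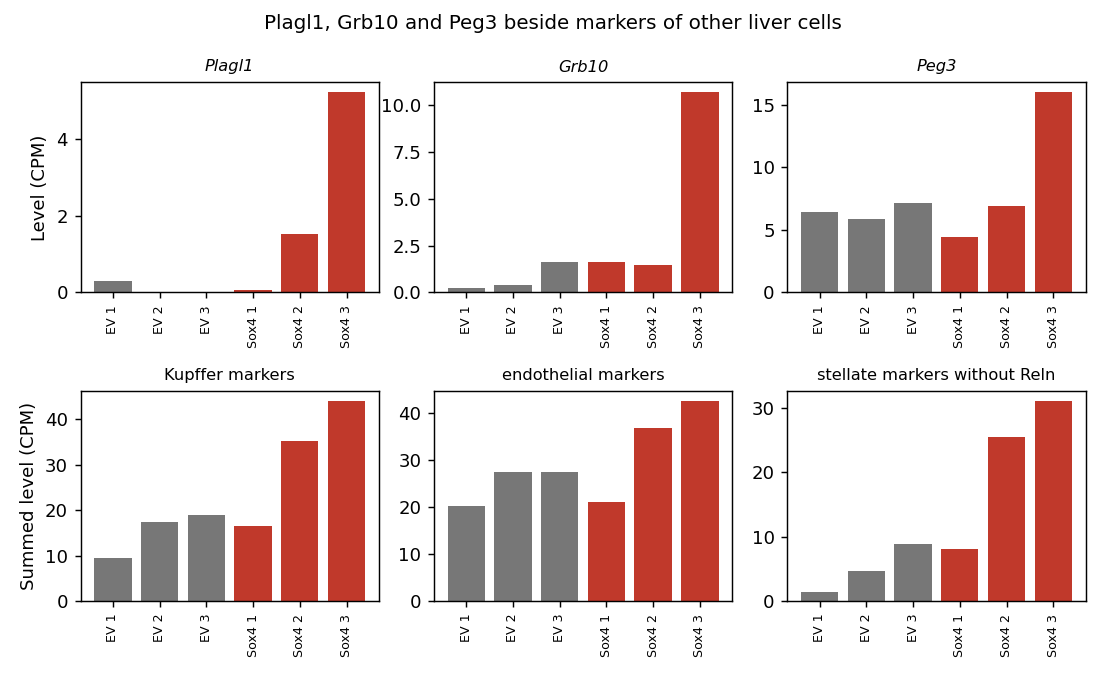
Level in CPM of Plagl1, Grb10 and Peg3 (upper panels) and summed level of Kupffer cell markers, endothelial markers and stellate markers without Reln (lower panels) in each library, EV in grey and Sox4 in red, each axis from 0. All 6 panels have their highest bar in Sox4 3, while Sox4 1 is within the EV range for Plagl1 and the 3 marker sums, just above it for Grb10 (1.65 CPM) and below it for Peg3 (4.46 CPM). The stellate list without Reln was made after seeing the data, and the full list had its lowest Sox4 sum in Sox4 3.

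Genes with a pattern most like H19 were found over the 6 libraries by the root mean square difference of log2 CPM, each gene centred on its mean. Outside the 10 genes the closest were Cd24a (0.68), Sox4 (1.17), Mex3a (1.41), Marcksl1 (1.43) and Prom1 (1.61). Cd24a, a cell surface protein used to mark reprogrammed hepatocytes, had 0, 1 and 0 counts in EV and 9448, 12521 and 10896 in Sox4 1 to 3, so it lacked the excess of H19 in Sox4 3. Prom1, a marker of progenitor cells, had at most 2 counts in an EV library and between 1167 and 1316 in Sox4 libraries. The levels of Sox4, Mex3a and Marcksl1 fell from Sox4 1 to Sox4 3, where H19 rose. The measure is not scaled, so the size of the difference between groups weighs more in it than the order within Sox4.

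Imprinted genes beyond the 10 went in both directions. Of 64 such genes listed, 63 were in the table and 35 were tested, of which 12 were called higher, 6 lower and 17 neither, where 29.0% and 26.0% of all genes were called higher and lower. Their median log2 fold change was 0.25, against 0.0411 for all genes, and the median is the same with Osbpl5 at its bound. With library size alone 21 were called higher and 2 lower. Without Sox4 2 the total fell from 18 to 11 genes called, and without EV 1 or EV 2 to 12. Outside the members' domains the largest rises were in Mkrn3 (2.49, SE 0.507, adjusted p = 0.00777), Peg10 (2.00, SE 0.806, adjusted p = 0.0275), Sgce (1.63, SE 0.541, adjusted p = 0.0136), Ppp1r9a (1.33, SE 0.175, adjusted p = 1.12e-04) and Peg13 (1.33, SE 0.568, adjusted p = 0.0319). Peg10 and Sgce start side by side on chromosome 6 and, like most members, were highest in Sox4 3. The calls of Peg10, Sgce and Peg13 were lost when 1 library was left out, up to an adjusted p of 0.101, 0.0517 and 0.1.

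Besides Cobl, 5 imprinted genes were called lower. Slc38a4, an amino acid transporter, stood at 1410, 1430 and 1330 CPM in EV and at 646, 759 and 797 CPM in Sox4, and its log2 fold change was -0.92 (SE 0.0967, edgeR adjusted p = 4.39e-04). Snrpn, a splicing protein gene, was at -0.70 (adjusted p = 0.0188), the paraoxonase Pon2 at -0.69 (adjusted p = 3.51e-04), Zrsr1 at -0.66 (adjusted p = 0.0246) and Pon3 at -0.34 (adjusted p = 0.0258). With library size alone the calls of Snrpn, Pon2 and Zrsr1 were lost and Pon3 turned to 0.128. Leaving out single libraries ended the calls of Snrpn (adjusted p = 0.0661), Zrsr1 (up to 0.1) and Pon3 (up to 0.0801).

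IGF signalling is the pathway of Igf2, Igf2r and Grb10. Of 18 of its genes listed, 12 were tested, 3 were called higher and 6 lower, where 29.0% and 26.0% of all tested genes were, and the median log2 fold change of 0.0724 was near the 0.0411 of all genes. With library size alone 5 were higher and 2 lower. The adult ligand Igf1 stood at 614, 672 and 824 CPM in EV and at 393, 542 and 411 CPM in Sox4 (log2 fold change -0.65, SE 0.192, adjusted p = 0.00993), a call that was lost with library size alone (adjusted p = 0.381). The growth hormone receptor Ghr, which drives Igf1 in liver, was at -1.27 (SE 0.0864, adjusted p = 3.59e-05). The binding protein Igfbp5 was at -2.31 (adjusted p = 0.00328), Igfbp4 at -0.70 (adjusted p = 0.00182) and Igfals, the subunit that holds IGF1 in the circulation, at -0.70 (adjusted p = 0.00721), of which the latter 2 were lost with library size alone. Higher were the docking protein Irs1 (1.21, SE 0.191, adjusted p = 2.01e-04) and the binding proteins Igfbp2 (0.84, adjusted p = 0.0111) and Igfbp7 (0.77, adjusted p = 0.049, up to 0.169 without 1 library). The signalling receptor Igf1r had 1, 5 and 0 counts in EV and 9, 12 and 14 in Sox4 libraries and was not tested.

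Genes that act on imprints or DNA methylation, or repress fetal genes after birth, were mostly higher in the Sox4 libraries. Beside genes that protect methylation, the list holds the Tet enzymes, which oxidise methylated cytosine and were called higher too. Of 17 tested genes 13 were called higher and 1 lower, where 29.0% and 26.0% of all tested genes were. The median log2 fold change was 0.84 against 0.0411. The counts were 16 and 1 with library size alone. Zfp57, which guards methylation at imprinted control regions, had 0, 0 and 1 counts in EV and 103, 146 and 183 in Sox4 1 to 3, at least 32.3-fold above the EV floor (adjusted p = 7.30e-06). Tet1, an enzyme that oxidises methylated cytosine, was at least 12.6-fold higher (adjusted p = 2.10e-04), and Tet3 was at 1.21 (adjusted p = 4.21e-05). Uhrf1, which brings the maintenance enzyme Dnmt1 to replicating DNA, had 2, 5 and 0 counts in EV and 189, 138 and 33 in Sox4 libraries (log2 fold change 5.05, SE 0.954, adjusted p = 0.00197), with Sox4 3 the lowest of the 3. Dnmt1 was at 0.84 (adjusted p = 0.00125), the zinc finger repressor of Igf2, Zfp568, at 1.70 (adjusted p = 3.29e-06) and Ctcf at 0.43 (adjusted p = 0.00976, and 0.0505 without EV 1). Zhx2 was at 20.2, 19.1 and 16.7 CPM in EV and 17.2, 25.3 and 16.1 CPM in Sox4. Its log2 fold change of 0.06 (SE 0.217, adjusted p = 0.789) changed sign without EV 3 or Sox4 2 and passed with library size alone (0.534, adjusted p = 0.0306). Ctcfl, the testis relative of Ctcf, was the one called lower, at -2.64 (adjusted p = 0.00316).

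**Figure D5:**
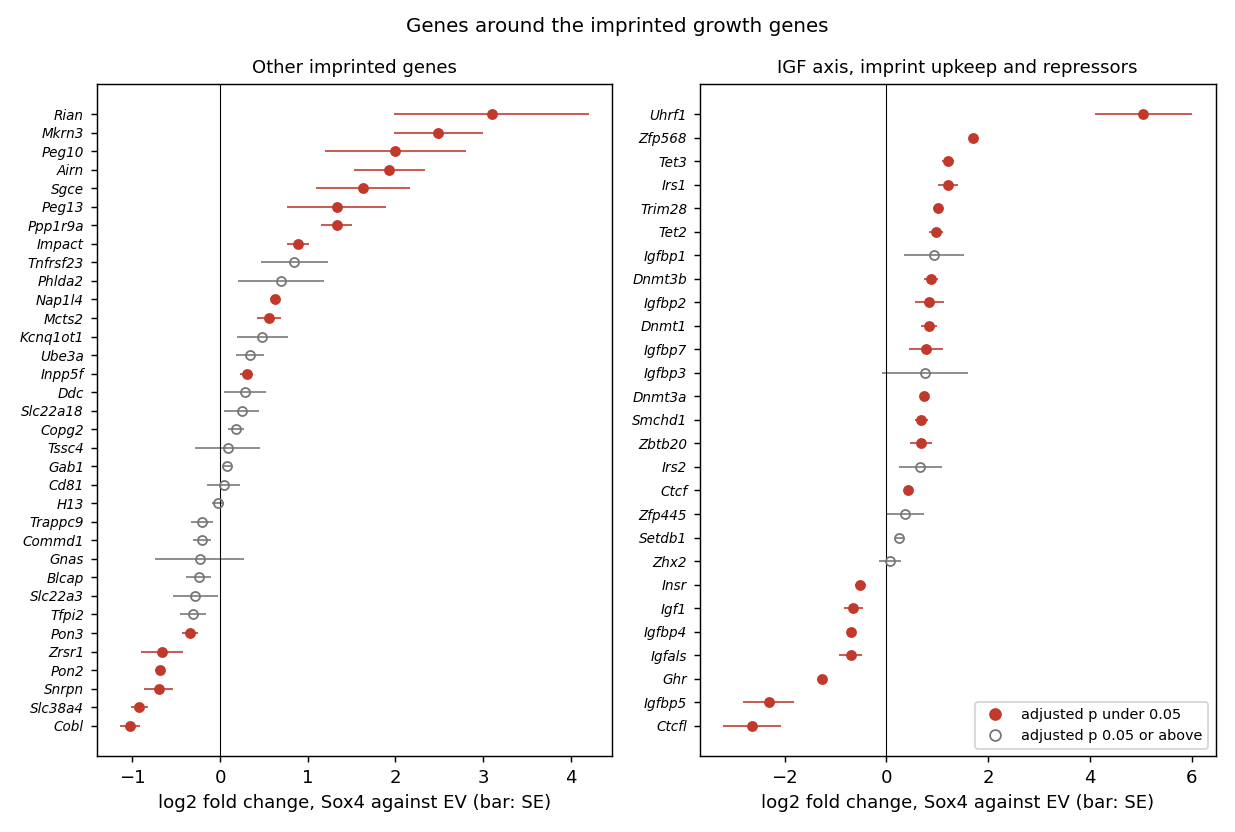
Log2 fold change of Sox4 against EV (edgeR) for tested other imprinted genes (left) and for tested genes of the IGF axis and of imprint upkeep and repression, the Tet enzymes included (right). Symbols are filled red where the edgeR adjusted p was under 0.05. Bars are the SE of the difference of mean log2 CPM. Osbpl5, Zfp57 and Tet1, whose EV libraries were all at or under the floor, are not drawn. Values spread to both sides of 0 on the left, from Rian at 3.10 to Cobl at -1.03.

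Of 12 fetal liver genes that are not imprinted, 6 were tested, 5 were called higher and 0 lower, where 29.0% and 26.0% of all tested genes were. The median log2 fold change of 1.40 is the same with Gpc3 at its bound. Among those not tested, Igf2bp1, Lin28a and Lin28b had 0 counts in every library and Hmga2 at most 1. Mycn went from 14, 9 and 10 counts in EV to 5, 1 and 0 in Sox4 libraries, and Trim71 from 0 counts in EV to 4, 4 and 3. The number called higher fell to 2 without EV 1, without EV 3 and with limma-voom, and without Sox4 3 there was 1 gene called higher and 1 lower. Gpc3, a heparan sulphate proteoglycan that restrains fetal growth, had 0, 0 and 1 counts in EV and 50, 54 and 107 in Sox4, at least 15.8-fold above the floor (adjusted p = 6.99e-05). Afp, the fetal serum protein that Zhx2 represses along with H19, was at 3.01, 3.27 and 4.94 CPM in EV and 4.91, 6.38 and 13 CPM in Sox4, so the groups overlapped. Its log2 fold change was 1.11 (SE 0.466, adjusted p = 0.0325), and 0.60 without Sox4 3 (adjusted p = 0.127). Igf2bp3 and Igf2bp2, which bind Igf2 and H19 RNA, were at 1.47 (adjusted p = 0.0294) and 1.33 (adjusted p = 0.0211), and Arid3a at 1.63 (adjusted p = 0.0393), and each of these calls was lost when 1 library was left out.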

How the data were processed

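The authors aligned reads to GRCm39 with STAR 2.7.10b and counted them per gene with featureCounts 2.0.1, per the submitters' processing notes, and deposited raw counts. A second deposited table holds normalized signal, each count over its library's DESeq2 size factor. Recomputed size factors equalled those constants, and the table was otherwise used for 1 alternative. The annotation release, strand setting and treatment of multimapping reads are not given in the sources used here. Counts were filtered with filterByExpr (minimum count 10, minimum total 15), scaled by TMM and compared by the edgeR 4.0.16 quasi-likelihood F test with robust dispersion in R 4.3.3, with Benjamini-Hochberg adjustment over the 12691 genes tested and a threshold of 0.05. Fold changes are edgeR's, and SE is that of the difference of mean log2 CPM (prior count 2). For genes split within a group that difference can be smaller than edgeR's value, as for Meg3 (2.08 against 2.83) and Rian (2.5 against 3.1). Where all EV libraries were at or under 3 counts, the bound is the mean Sox4 CPM over the mean EV floor. Replicate libraries were not copies of each other (chi-square per degree of freedom 19.3 to 69.8). DESeq2 1.42.0 and limma 3.58.1 served as alternatives.

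The members and the lists were chosen with earlier results of these data known. Named were all members, imprinted genes of their domains, up to 5 further called genes each way per list, Igf1, Igf1r, Zhx2, Ctcf, Dnmt1, Afp, Gpc3, Sox4 and the 5 genes most like H19. Markers appear only as lists. Igf2bp1, Lin28a, Lin28b, Hmga2, Mycn, Trim71, Ms4a1, Reln, Nap1l4, Tssc4 and the overlapping genes Gm49394 and Gm44732 were named after their values were seen. Only deposited tables were used, and reads were not analysed here.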

Additional observations from a re-analysis of the deposited data

How the results depend on the processing

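Of 627 values for 50 single genes under the alternatives, 553 stayed the same, 57 lost the call, 6 gained it (5 of them with library size alone), 5 moved and 6 changed sign. For genes with a test, the same means that sign and call were kept. Members and fold bounds carried no call, so there it means a value within the SD between libraries of the main one, and moved means outside it. The sign changed without Sox4 3 for Peg3 (-0.181) and Mest (-0.041), whose leave-out values reached 0.82 and 0.913, with library size alone for Slc22a3 (0.188) and Pon3 (0.128), and for Zhx2 without EV 3 (-0.026) and without Sox4 2 (-0.162), out of values up to 0.19 without Sox4 3. Fetal liver genes called dropped from 5 to 2 with limma-voom, where 6 were tested. Under a minimum mean count of 50 only 3 of them were left to test, and 2 were called. Their number ranged from 2 to 6 when each library was left out. Other imprinted genes called ranged from 11 to 18 in the same way. The cause was not tested. Over all genes the calls ranged from 5937 to 8092. Correlations of deviations between EV and Sox4 libraries of the same replicate number were 0.27, -0.09 and 0.13. These do not settle whether replicate numbers pair the libraries. With the replicate number as a block, 7362 genes were called, 6853 of them shared with the fit without it, and 19 other imprinted genes. Rian (adjusted p = 0.136) and Arid3a (0.0628) lost the call and Ddc gained it (0.0465). An estimator of mean differences in log2 CPM and a stellate list without Reln were added after seeing the data. Igf2, Plagl1 and Mirg had too few counts to be tested.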
